A study of Mus musculus with 36 samples.

Results

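The 10 annotated mouse genes described here, Gm10800, Gm10801, Gm21738, Gm26870, Gm11168, Gm10718, Gm10722, Gm10719, Gm17535 and Gm10717, consist of satellite repeat sequence and are counted as ordinary genes in RNA-seq tables. They were selected on their measured values in these data, being high in the MSR-dCas9-Activator line after induction, and they are 10 of the 54842 genes in a count table that also holds 1561 repeat families. The study placed a catalytically dead Cas9 on the major satellite repeats (MSR) of mouse embryonic fibroblasts (MEF) and asked how forced transcription of these repeats alters the cell. Total RNA was sequenced from 2 cell lines at 6 time points with 3 replicates each, 36 libraries in all. The third line of the study, MSR-dCas9-Repressor, was not analysed here.

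Both lines carried the MSR guide RNA, expressed constitutively, and a doxycycline-inducible dCas9 protein: dCas9 with no effector domain in the MSR-dCas9-Control line (Control) and dCas9 joined to the VPR activation domain in the MSR-dCas9-Activator line (Activator). Each line is a mixed culture made with the PiggyBac transposon, not a clone. The libraries of each line were uninduced (untreated), induced, or collected during recovery in medium free of doxycycline, at 3, 6, 12 or 24 h. Induction used 10 ng/ml doxycycline for 24 h in Control and for 6 h in Activator, so that the length of exposure and the effector domain cannot be told apart in a comparison of the lines after induction. The study describes its RNA-seq replicates as biological.

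Major satellite DNA is A/T-rich and arranged in long tandem arrays at the pericentromeres of mouse chromosomes, where it forms constitutive heterochromatin marked by H3K9 methylation. Both strands can be transcribed, giving purine-rich (forward) and pyrimidine-rich (reverse) RNA. Reference assemblies contain only a few short stretches of such repeats, and gene annotation has placed predicted genes on some of them, so a read from any array in the genome may be assigned to one of these gene models.

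The 10 genes lie at 3 places of the GRCm38 assembly (GENCODE M21 annotation). Gm10800 is at chr2:98666547-98667301 on the minus strand and Gm10801 at chr2:98662237-98664083 on the plus strand. Gm21738 is at chr14:19415857-19418930 on the minus strand. The other 7 share the start of the chromosome 9 assembly, where the lincRNA Gm26870 (chr9:3000282-3038313, minus strand) spans the plus-strand genes Gm10722 (chr9:3000922-3002330), Gm11168 (chr9:3003346-3006948), Gm10719 (chr9:3017408-3021593), Gm10718 (chr9:3023547-3025218), Gm10717 (chr9:3025417-3033289) and Gm17535 (chr9:3034599-3035805). All except Gm26870 are annotated as protein-coding, and none has an annotated UTR. The map of exons shows that Gm26870 exons overlap those of Gm11168 by 235 bases, Gm10718 by 155 bases, Gm10719 by 218 bases and Gm17535 by 288 bases. The library kit was stranded, but the strand setting of the counting is not given in the sources used here, so reads of Gm26870 and of these overlapping genes may not have been told apart.

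**Figure D1:**
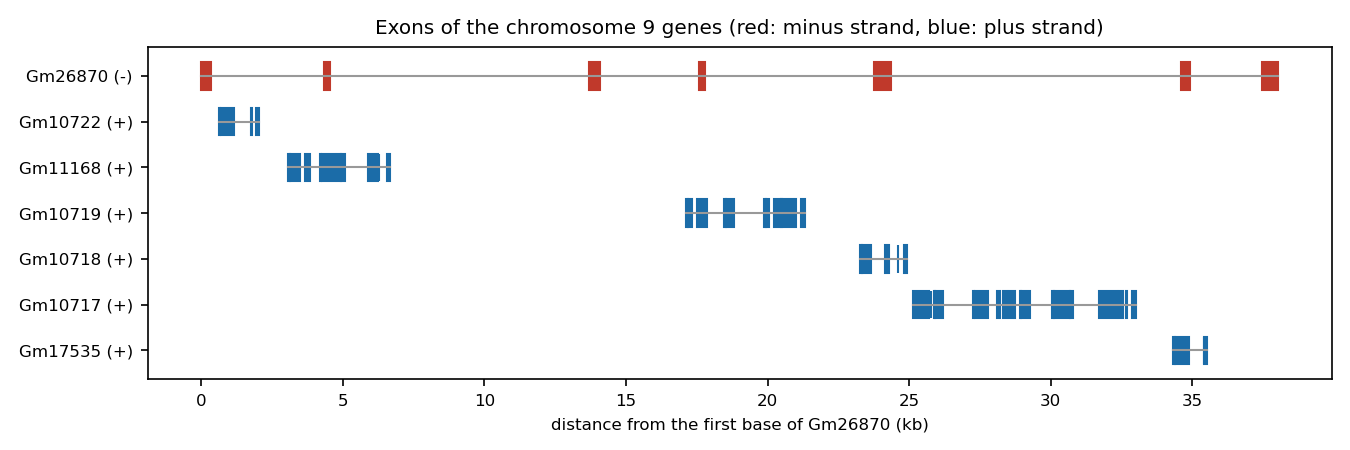
Exons (boxes) of the 7 genes at the start of chromosome 9, by distance in kb from the first base of Gm26870, in red for the minus strand and blue for the plus strand. Gm26870 has 7 exon blocks spread over the whole stretch, with the 6 plus-strand genes side by side beneath it.

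The exonic sequence carries the satellite repeat in all 10 genes. The transcript ENSMUST00000181572 of Gm26870 met its own base 234 positions further on at 95.9% of positions, the length of 1 repeat unit. One such unit from it is shown, and capitals mark stretches of 42 bases that all 10 genes hold on one strand or the other:
Gm26870 unit: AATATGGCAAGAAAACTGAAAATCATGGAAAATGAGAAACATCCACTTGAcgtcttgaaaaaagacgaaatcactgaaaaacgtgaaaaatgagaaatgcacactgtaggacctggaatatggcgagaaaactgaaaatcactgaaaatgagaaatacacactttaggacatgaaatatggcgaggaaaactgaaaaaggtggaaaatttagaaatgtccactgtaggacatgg

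The transcripts of the genes were aligned to tandem copies of the first 234 bases of ENSMUST00000181572, a unit other than the one shown. Their aligned bases, gaps left out, were 88.9% (Gm10801) to 95.5% (a transcript of Gm26870) identical. The alignments spanned at least 99.1% of each transcript, gaps included. Gm26870 matched the aligned unit on the same strand and was 68.4% purine, whereas the other 9 genes matched the reverse complement of that unit and were 30.4% to 31.7% purine. A/T content was 64% to 65.7%. The same shared stretch is given with up to 20 bases on each side in a gene of each locus, to show how little separates them, with Gm26870 printed on its own strand:
Gm10800: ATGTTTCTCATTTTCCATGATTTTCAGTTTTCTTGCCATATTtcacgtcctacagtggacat
Gm10801: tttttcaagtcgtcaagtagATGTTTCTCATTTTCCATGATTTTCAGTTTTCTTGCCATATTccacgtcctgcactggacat
Gm21738: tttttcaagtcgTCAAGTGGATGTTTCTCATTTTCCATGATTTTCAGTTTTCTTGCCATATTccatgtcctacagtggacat
Gm10722: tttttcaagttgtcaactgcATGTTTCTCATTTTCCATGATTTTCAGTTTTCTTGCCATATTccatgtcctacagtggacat
Gm10717: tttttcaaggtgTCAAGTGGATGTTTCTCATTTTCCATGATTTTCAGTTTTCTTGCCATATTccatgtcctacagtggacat
Gm26870: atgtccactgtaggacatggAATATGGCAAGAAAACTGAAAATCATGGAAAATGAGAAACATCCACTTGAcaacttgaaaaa

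Of 55450 annotated genes, 11 held one of these stretches, the 10 genes and Gm10721. Of the different 16-base words in each gene's exons, 58.8% (Gm10801) to 95.9% (Gm17535) also occurred in another of the 10 genes on either strand. For 50-base words this share was lowest in Gm10801 at 17.1%, was 27.4% in Gm10800 and reached 90.1% in Gm17535. A read can therefore match several of these genes and arrays that carry no gene model, and how the counting shared such reads is not given in the sources used here. Counts of single genes of the set, and differences between them, are uncertain for this reason, and the sum over the 10 is given beside them.

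The libraries held 27376846 to 57371803 gene counts (median 42865961), and counts below are normalised to the mean effective library size. Fibroblast genes Col1a1, Col1a2, Fn1 and Vim were high in every library, with medians of 2650 to 9270 CPM (gene counts scaled to a common library total), whereas the fibroblast surface marker Thy1 was near 0 (median 0.0284) and Postn low (median 0.718). Of the markers of other cell types, the epithelial Epcam reached at most 0.0961 CPM and Cdh1 2.93. Of the blood markers, Hbb-bs was at 0 throughout, Ptprc reached 1.22 CPM and Cd68 was at 3.15 to 8.23 CPM in every library. Pecam1, an endothelial adhesion molecule, reached 32.4 CPM, the liver gene Alb reached 7.31 CPM, and the neural genes Mbp (median 31.7) and Tubb3 (median 19.4) were detected. Their part in the results was not tested.

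In Control the 10 genes together were rare RNA species. Their summed normalised count was between 124.1 and 318.8 in the 18 Control libraries (median 213.9), which is 0.000293% of gene counts in the lowest library. In uninduced Activator cells the sum was 2237, 701.8 and 2005 in replicates 1, 2 and 3, above every Control library. In the 15 Activator libraries from induction on it was between 73490 and 1708000 (median 400700), and the highest library gave 3.42% of all gene counts to these 10 genes. The repeat family GSAT_MM, the count over all annotated major satellite copies, was at 951.5 to 1968 in Control, 2234 to 4233 in uninduced Activator and 99120 to 2004000 in Activator from induction on. The plot of counts in every library shows 3 separate levels for 9 of the 10 genes, whereas for Gm10717 the uninduced Activator libraries overlapped those of Control.

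**Figure D2:**
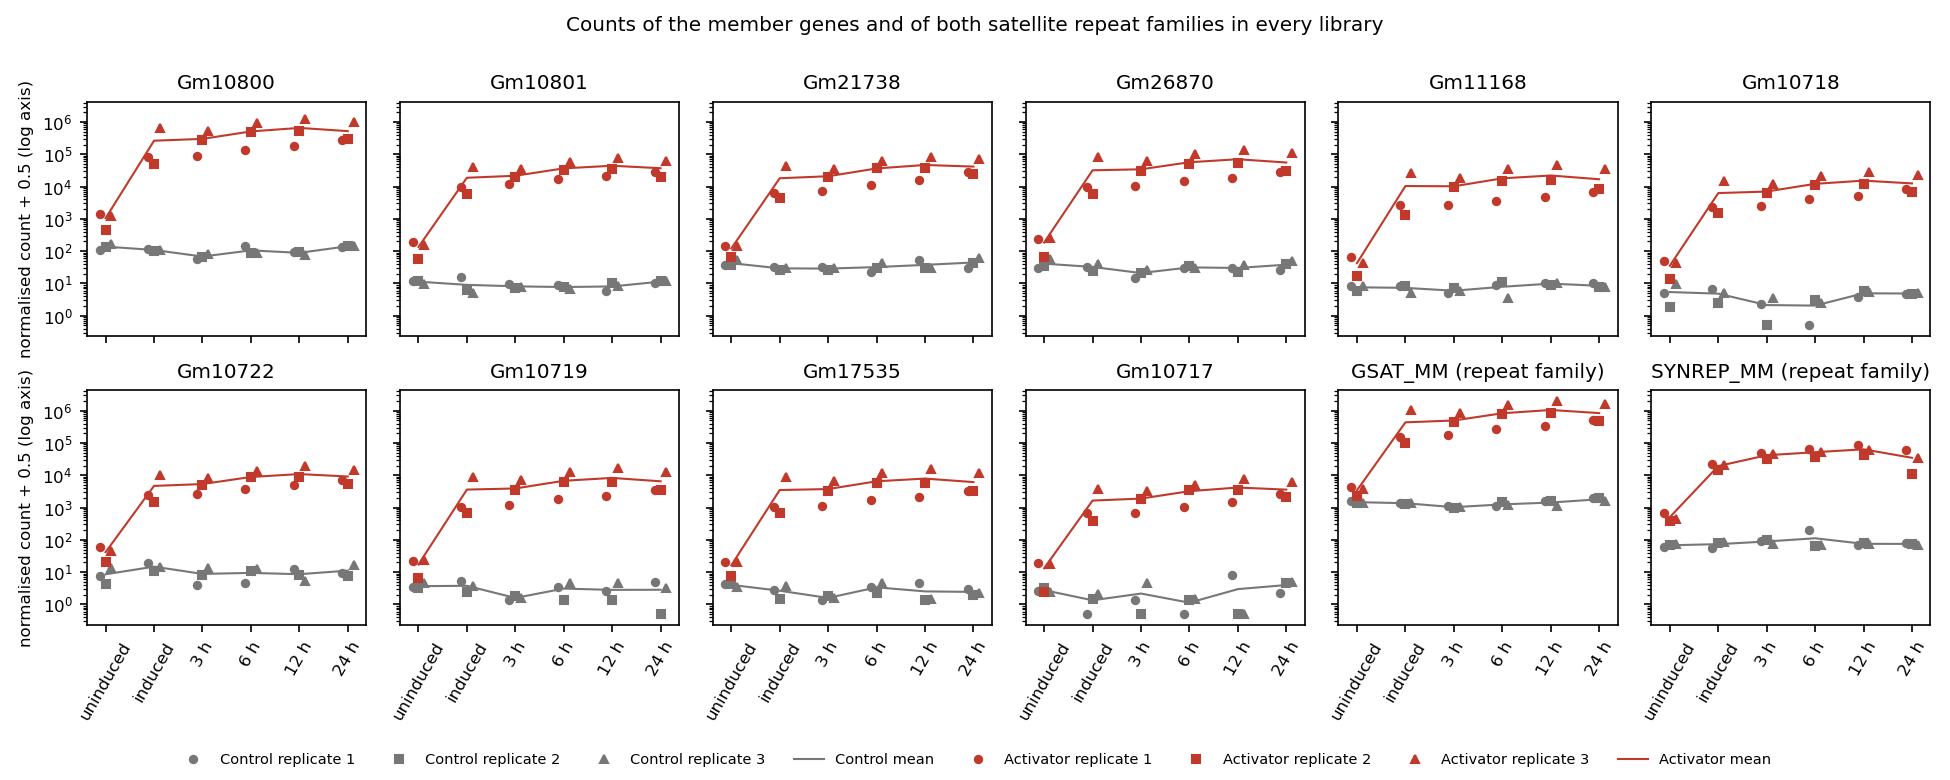
Normalised count plus 0.5 on a log axis for the 10 genes and the satellite repeat families GSAT_MM and SYNREP_MM at 6 time points, with points for the 3 replicates (circle 1, square 2, triangle 3), lines for the means, grey for Control and red for Activator. From induction on, every Activator point lies above every Control point in each panel, and replicate 3 (triangle) is the highest Activator library for all 10 genes at each time point from induction on.

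Gm10800, on chromosome 2, had the highest count of the set in every library. Its normalised count was 57.07 to 163.9 in Control (median 103.7). In Activator it was 1433, 449.5 and 1257 in replicates 1, 2 and 3 before induction and 79960, 51200 and 658400 when induced. At 24 h after removal it was 284000, 287000 and 992800. Replicate 3 stood far above the others at the end of induction, at 8.23 times replicate 1, and less so after 24 h, at 3.5 times replicate 1. Per kb of exon, the scale on which genes of different length can be set side by side, Gm10800 also led, with a median of 435000 normalised counts per kb in Activator from induction on and 157 in Control.

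Gm10801, its neighbour on the opposite strand, was at 4.66 to 15.06 in Control (median 8.762). In Activator it was 192.4, 56.06 and 152.8 before induction, 9503, 5841 and 40830 when induced, and 28340, 19620 and 62900 after 24 h. The spread between induced replicates, 6.99-fold from lowest to highest, was smaller than the 12.9-fold of Gm10800. Gm21738, the single gene on chromosome 14, was at 21.32 to 59.1 in Control (median 30.58), 147.9, 66.07 and 146.3 before induction in Activator and 6536, 4289 and 43400 when induced. Its Control level was thus above that of Gm10801, whereas in Activator from induction on the medians of the pair were close, at 28340 for Gm10801 and 28660 for Gm21738.

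Gm26870, the purine-rich lincRNA of chromosome 9, was at 14.49 to 55.97 in Control (median 29.88). In Activator its normalised count was 229.8, 66.07 and 256.8 before induction, 9998, 6030 and 79640 when induced, and 28330, 30830 and 107500 after 24 h. It is the one gene of the set annotated on the purine-rich strand, and in the induced libraries it had the same order of replicates as the other 3 genes described so far. The 6 plus-strand genes of the array had lower counts per gene. Among them Gm11168 had the highest median normalised count in Activator from induction on, at 9369, and Gm10717 the lowest, at 2585. Per kb of exon the order was another, with medians in Activator from induction on of 12200 normalised counts per kb for Gm10718, 11500 for Gm26870, 10800 for Gm10722 and 4950 for Gm11168. In Control this order did not hold: Gm10722 was above Gm26870 on this scale, at 14.7 against 11.1, and Gm10718 below it, at 5.44. Gm11168 also had the widest spread between induced replicates, at 2600, 1346 and 27160, a 20.2-fold range. In Control the array genes Gm10718, Gm10719 and Gm10717 were at 0 in at least 1 library, and Gm10717 had a median of 1.282 normalised counts.

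Before any doxycycline, the 10 genes were already higher in Activator than in Control, a comparison that was not used to choose them. The fitted log2 difference ran from 1.60 (Gm21738) to 3.70 (Gm10801) with a median of 2.47, against 0.029 over all 30034 features tested, with standard errors of 0.68 to 1.37. All 10 were more than 2-fold higher, as were 6.93% of all features. The Activator libraries lay above the Control libraries without overlap for 9 of them, the exception being Gm10717, and for 8.31% of all features. By the edgeR quasi-likelihood test, with p-values adjusted by Benjamini-Hochberg over every feature, 2 of the 10 were called higher (adjusted p under 0.05, over 2-fold, mean normalised count above 100), where 0.18% of all features were. The limit on the mean is set over all 36 libraries, and Gm10801 was above it only through the Activator libraries from induction on, in which it was chosen as high. Gm10801 had a mean of 133.8 in Activator and 10.8 in Control (log2 difference 3.70, SE 0.677, adjusted p = 0.00398), and Gm10800 had 1046 and 137.4 (log2 difference 3.01, SE 0.738, adjusted p = 0.0445). A further 5 had an unadjusted p below 0.05 without passing the adjustment. Without the replicate number as a block no gene was called (lowest adjusted p = 0.0635, with 4 at an unadjusted p below 0.05), and DESeq2 called 5. GSAT_MM itself was at a log2 difference of 1.20 (adjusted p = 0.565), and SYNREP_MM, the minor satellite repeat family, at 2.91 (adjusted p = 8.16e-05). In a fit of the 6 uninduced libraries alone, 7 of the 10 passed the filter on low counts and 6 of them had an edgeR adjusted p below 0.05, the lowest being 0.000481 for Gm10801, while Gm10800 was at 0.156. Of these 6 genes Gm26870 was the 1 called, the means of the others being under the limit. Without replicate 2 or replicate 3 no gene was called, with lowest adjusted p of 0.0551 and 0.1, and without replicate 1 the count was 1.

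In Control, doxycycline induces dCas9 without an effector domain. Between induced and uninduced Control, none of the 10 was called by edgeR in either direction, and none had an unadjusted p below 0.05, where 0.00333% of all features were called higher and 0.0566% lower. The fitted log2 differences ran from -1.40 to 0.96 with standard errors of 0.78 to 2.54. Between 24 h after removal and induced Control, again none was called and none had an unadjusted p below 0.05, with 0% of all features called in either direction. DESeq2 called none of the 10 in either comparison. In fits of the compared Control libraries alone, 5 of the 10 genes passed the filter on low counts, with none called and 1 at an unadjusted p below 0.05 in each comparison. The other 5 entered the fit of all libraries through their Activator counts.

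By the sum of the 10 genes, the Control libraries of 3 h after removal were the lowest of that line. Their summed normalised count was 124.1 to 168.2, without overlap with the 216.6 to 318.8 of uninduced and the 179.4 to 234.6 of induced Control. The dip was not particular to the 10 genes. GSAT_MM was at 951.5 to 1125 at 3 h, below the 1423 to 1562 of uninduced and the 1318 to 1404 of induced Control. Gm10800 was at 57.07 to 78.97 at 3 h, 110.1 to 163.9 uninduced and 100.3 to 115.7 induced. In the fit of all libraries none of the 10 was called at 3 h against uninduced Control (0.0666% of all features called lower) or against induced Control (0% called lower), and none had an unadjusted p below 0.05. Fits of the compared libraries alone were added after these values were seen. There Gm10800 fell by 1.01 on the log2 scale against uninduced Control (SE 0.138, edgeR adjusted p = 9.06e-05), the 1 call among the 3 genes that passed the filter, where 0.187% of all features were called lower. Against induced Control its log2 difference was -0.70 (SE 0.17, edgeR adjusted p = 0.0245), under the limits on fold and mean, and none of the 4 genes tested was called, where 0.00912% of all features were called lower.

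At the end of induction the 10 genes were higher in Activator than in Control by a fitted log2 difference of 7.90 (Gm10722) to 10.67 (Gm10800). The same contrast chose the genes, so the values are a description without a test. All 10 were past the limits for a call at each of the 5 time points from induction on, which describes how they were chosen, beside 2.92% of all features called higher when induced. During recovery the share of all features called higher was 3.75% (3 h), 3.99% (6 h), 5.16% (12 h) and 3.86% (24 h). The genes ranged from 9.36 to 11.94 after 3 h and from 9.87 to 12.70 after 6 h. The range was 10.06 to 12.53 in the 12 h libraries, and in those of 24 h its ends were 9.73 and 11.71. Within Activator, induced against uninduced libraries differed by 6.46 to 7.41 on the log2 scale, beside 2.57% of all features called higher. Where a Control group held only a few counts, the size is poorly fixed: Gm10717 had 2 counts in the 3 induced Control libraries against 5675 in Activator, a ratio of 2540 with a 95% exact counting interval of 703 to 21000. In a bulk sample, more RNA per cell and more cells expressing the repeat cannot be told apart.

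The genes were not lower a day after doxycycline removal, when the inducer had been absent for 24 h, than at the end of induction. Each of the 10 was higher at 24 h than when induced in all 3 replicate numbers, by 2.59-fold (Gm11168) to 4.38-fold (Gm21738) in replicate 1, by 3.36-fold (Gm10801) to 6.46-fold (Gm11168) in replicate 2 and by 1.29-fold (Gm11168) to 1.65-fold (Gm21738) in replicate 3. The fitted log2 difference was 1.10 to 1.53, with a median of 1.24 against 0.177 over all features. Both groups are among the libraries in which the genes were chosen as high, so the calls are not independent of that choice. By edgeR 7 of the 10 were called higher and none lower, where 4.11% of all features were called higher and 1.65% lower. The 7 were Gm10801, Gm21738, Gm10718, Gm10722, Gm10719, Gm17535 and Gm10717, with Gm10717 at 1.51 (SE 0.412, adjusted p = 0.00398). Gm10800 (log2 difference 1.25, SE 0.638, adjusted p = 0.105), Gm26870 (1.14, SE 0.509, adjusted p = 0.0644) and Gm11168 (1.10, SE 0.55, adjusted p = 0.0977) did not pass.

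This comparison rests on pairing the libraries by replicate number, since the induced and 24 h groups overlapped for all 10. Without the replicate block none was called (lowest adjusted p = 0.163, with none at an unadjusted p below 0.05), and DESeq2 with the block called 2. Leaving out induced Activator replicate 3, the library with the highest gene sum and GSAT_MM count of its group, gave 10 calls and log2 differences of 1.76 to 2.49. Leaving out induced Activator replicate 2, the lowest, gave 1 call, and leaving out all libraries of replicate 1 gave 2. Against the same interval in Control, the change in Activator did not pass for any of the 10 (lowest adjusted p = 0.179 for the interaction, and none had an unadjusted p below 0.05). The interaction ran from -0.34 to 1.96 on the log2 scale (median 1.21), with standard errors of 0.95 to 2.25. With standard errors this wide, it cannot decide whether the change in Activator differed from that in Control. GSAT_MM was at a log2 difference of 1.13 for 24 h against induced within Activator (edgeR adjusted p = 0.131) and at 0.684 for the interaction (edgeR adjusted p = 0.644).

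The 3 replicate numbers took different paths through the recovery, shown in the plot relative to each induced library. In replicate 1 the sum of the 10 genes went from 116100 when induced through 129700, 195400 and 255900 to 400600 at 24 h, its highest value. In replicate 2 it went from 73490 through 376800 and 657500 to 693900 at 12 h and then to 391500. In replicate 3 it began at 896200, was 719600 at 3 h, peaked at 1708000 at 12 h and was 1338000 at 24 h. GSAT_MM followed the same course within each number, ending at 3.33, 4.68 and 1.48 times its induced level where the gene sum ended at 3.45, 5.33 and 1.49 times. SYNREP_MM did not, with induced replicates only 1.55-fold apart and a 24 h level of 2.67, 0.757 and 1.6 times the induced one.

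**Figure D3:**
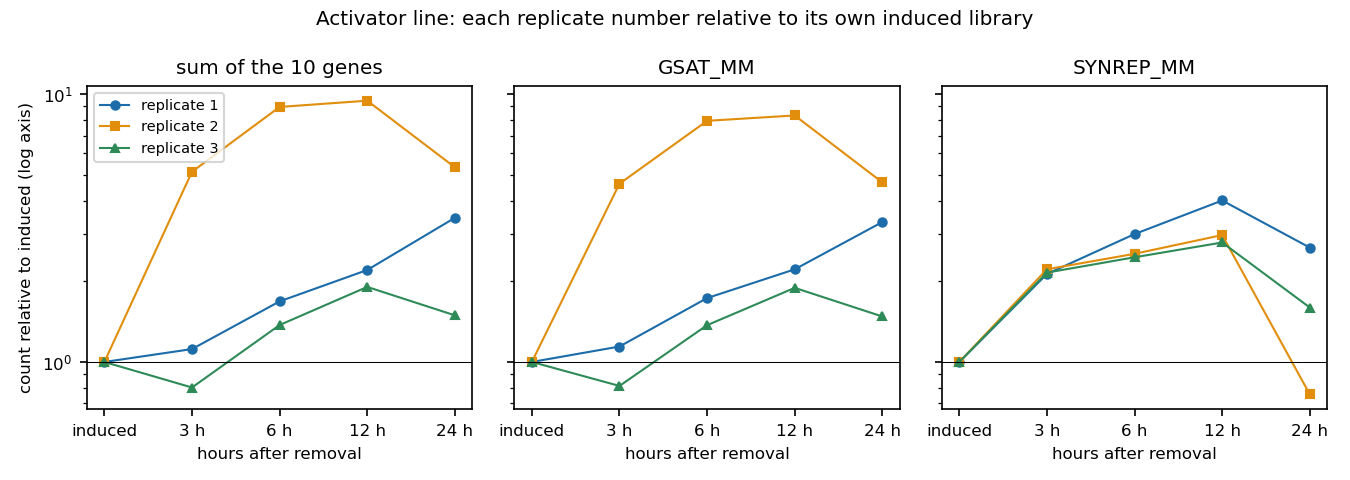
Normalised count in the Activator line relative to the induced library of the same replicate number, on a log axis, for the sum of the 10 genes, GSAT_MM and SYNREP_MM from induction to 24 h after removal. The curves of the gene sum and of GSAT_MM are alike within each replicate number, with replicate 2 rising most (9.44-fold for the sum at 12 h). The SYNREP_MM curves of the 3 numbers lie closer together than these up to 12 h and are furthest apart at 24 h.

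Set against GSAT_MM in the same library, which needs no size factor, the summed count of the 10 genes had a higher ratio to it in Activator than in Control. The ratio of their summed count to the GSAT_MM count before induction was 0.139, 0.17 and 0.223 in the Control replicates and 0.528, 0.314 and 0.521 in the Activator replicates. The groups did not overlap, with means of 0.177 ± 0.0425 (SD, n = 3) and 0.454 ± 0.122 (SD, n = 3), and the two-sided exact permutation test gave p = 0.1, the smallest that 3 against 3 libraries allow (adjusted p = 0.117 over 7 comparisons). When induced, the Activator ratio was 0.785 ± 0.0545 (SD, n = 3) and the Control ratio 0.153 ± 0.0181 (SD, n = 3), and from 3 h to 24 h the Activator mean stayed between 0.802 and 0.831. Within Activator the ratio at 24 h, 0.831 ± 0.0318 (SD, n = 3), overlapped that of the induced libraries (difference 0.0464, exact permutation p = 0.3, adjusted p = 0.3). The gene sum and the repeat family therefore moved by unequal factors between uninduced and induced Activator cells: in replicates 1, 2 and 3 the gene sum was 51.9, 105 and 447 times its uninduced level and GSAT_MM 35.8, 44.4 and 275 times. Single genes ran from a fitted log2 difference of 6.46 (Gm10722) to 7.41 (Gm10800), against 6.59 for GSAT_MM. Without Gm10800 the mean ratio in Activator was 0.166 before induction and 0.229 when induced, and in Control it was 0.0832 and 0.0738. The counts of the gene set and of GSAT_MM come from one table, and whether a read could be counted in both is not given in the sources used here.

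**Figure D4:**
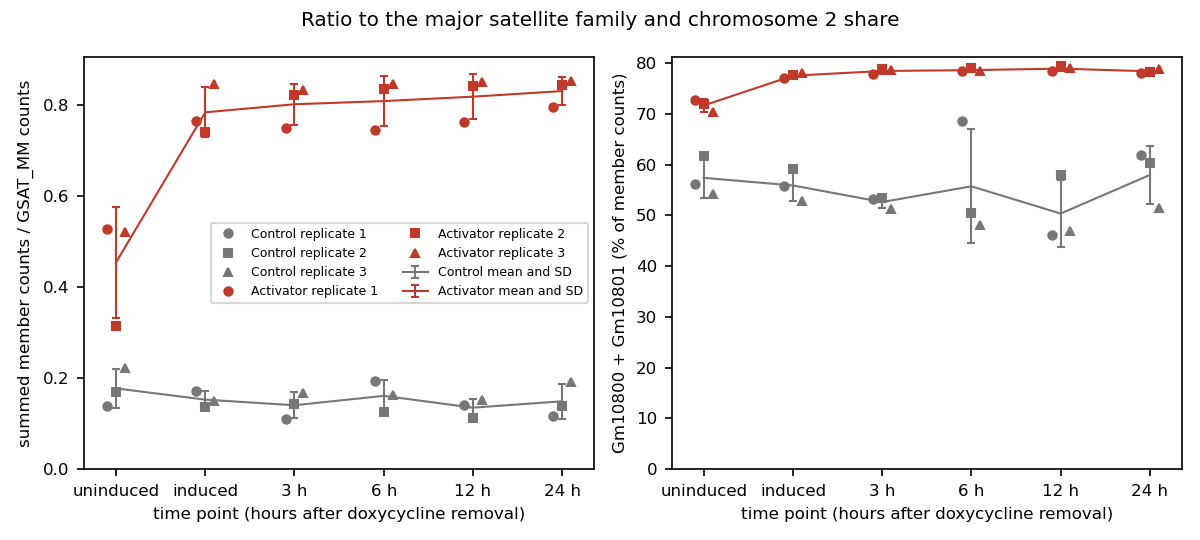
Ratio of the summed counts of the 10 genes to the GSAT_MM count (left) and share of Gm10800 and Gm10801 among those counts in percent (right), with points for the replicates and lines with bars for the mean and SD (n = 3), in grey for Control and red for Activator. The Activator ratio goes from a mean of 0.454 before induction to 0.785 when induced, whereas the Control means lie between 0.135 and 0.177.

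The composition of the set also differed between the lines. Gm10800 and Gm10801 together held 57.4% ± 3.94 (SD, n = 3) of the summed count in uninduced Control and 71.7% ± 1.21 (SD, n = 3) in uninduced Activator. The groups did not overlap (two-sided exact permutation p = 0.1, the smallest possible, adjusted p = 0.1 over the 6 time points). From induction on, where the contrast had chosen the genes, the Activator share was 77.6% to 78.9% on average and the Control share 50.3% to 58.0%, with no overlap at any time point. Of the pair, Gm10801 held a median of 4.2% in Control, 7.99% in uninduced Activator and 5.1% in Activator from induction on. Gm10800 alone held a median of 50% of the set in Control, 64.1% in uninduced Activator and 73.5% in Activator from induction on. Gm21738 went the other way, from a median of 16.4% in Control to 7.3% in uninduced Activator and 5.6% from induction on, as did Gm26870 (14.5%, 10.3% and 8.04%) and Gm10722 (4.82%, 2.59% and 1.35%). Shares within a library are tied, so a larger share of Gm10800 leaves less for the others.

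**Figure D5:**
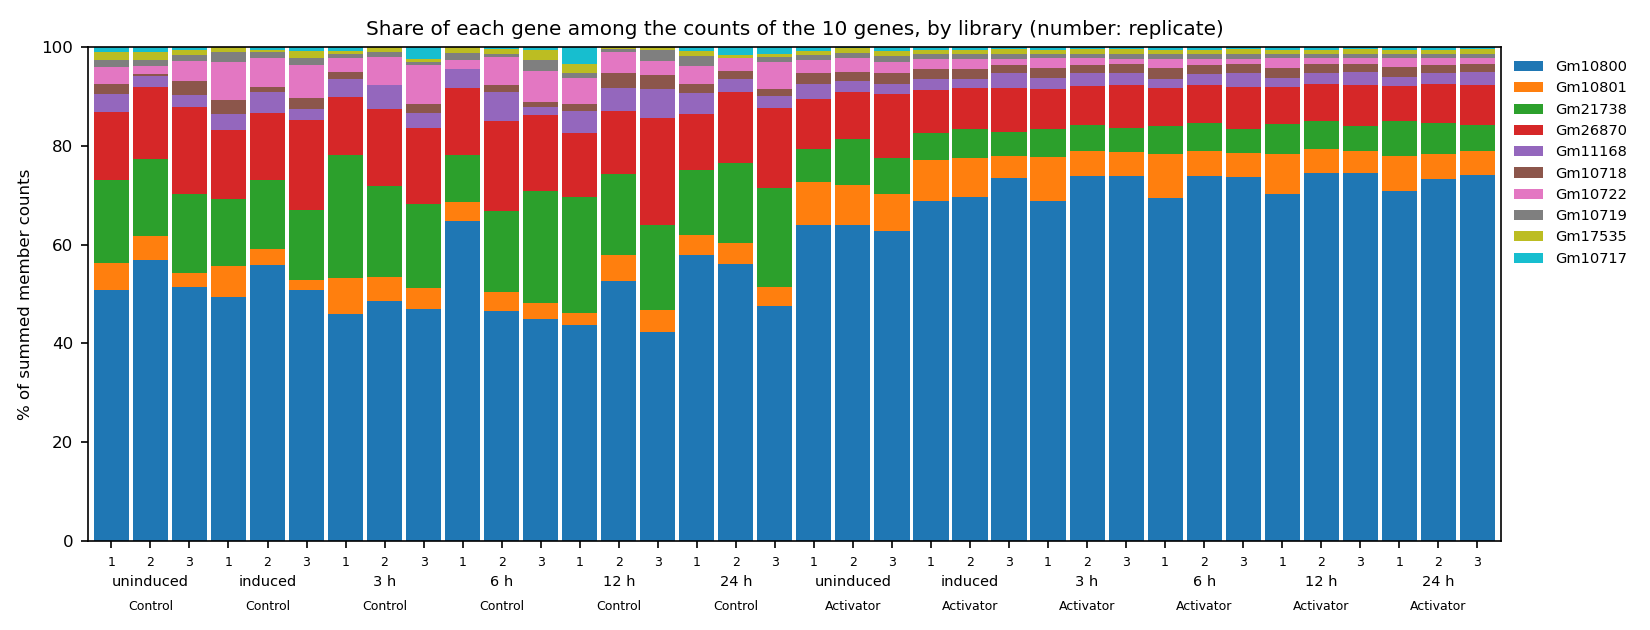
Share of each of the 10 genes in the summed count of the set, in percent, for the 36 libraries ordered by line, time point and replicate number. Gm10800 (blue, at the base) holds 42.3% to 64.7% in Control and 68.8% to 74.5% in Activator from induction on.

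Among the Activator libraries from induction on, the shares of several genes did not overlap between replicates 1 and 3, a description not set against the time point by a test. The share of Gm10801 was 7.07% to 9.05% in the 5 libraries of replicate 1 and 4.55% to 4.76% in those of replicate 3. That of Gm10722 was 1.76% to 2.05% and 1.11% to 1.17%, and that of Gm10717 0.53% to 0.645% and 0.417% to 0.454%. Gm21738, at 5.59% to 7.15% and 4.84% to 5.35%, and Gm10718, at 1.98% to 2.07% and 1.66% to 1.71%, were likewise higher in replicate 1. Gm11168 was the reverse, at 1.68% to 2.24% in replicate 1 and 2.57% to 3.03% in replicate 3. So were Gm10800, at 68.8% to 70.9% and 73.5% to 74.5%, and Gm10719, at 0.866% to 0.923% and 0.944% to 1.01%. The shares of Gm26870 did overlap, at 7.07% to 8.61% in replicate 1 and 8.04% to 8.89% in replicate 3, as did those of Gm17535. Replicate 2 resembled replicate 1 when induced, with Gm10801 at 7.95%, and approached replicate 3 later, at 4.91% at its lowest. The libraries of replicate 3 also had the highest gene sum and GSAT_MM count at each of these 5 time points, whereas SYNREP_MM was highest in replicate 1.

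By sequence, 3 further annotated genes have at least 50% of their exonic 16-base words in the 10 genes: Gm10720 (96.8%), Gm10721 (95.5%) and Gm10715 (89.1%), all in the same chromosome 9 array. No other of the 55398 genes scanned was above 1.12%. They were at most 1.422 normalised counts in Control, and in Activator from induction on their medians were 149.6 (Gm10720), 346.6 (Gm10721) and 840.3 (Gm10715). Between 24 h after removal and induced Activator, Gm10721 (log2 difference 1.69, adjusted p = 0.00156) and Gm10715 (1.34, adjusted p = 0.0101) were called higher, and Gm10720 (1.84, adjusted p = 0.000444) missed the limit on the mean count. Before induction none of the 3 was called between the lines, at log2 differences of 0.82 (Gm10721), 1.72 (Gm10720) and 2.42 (Gm10715). With at most 6.502 normalised counts in any uninduced library, they held too few for this comparison to decide. Gm10715 was at 2.002 to 6.502 in uninduced Activator and at most 1.304 in Control. Gm10720 was at 1.001 to 1.782 and at most 0.9994, whereas Gm10721, at 0 to 1.782 and at most 1.422, overlapped.

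Features were ranked by how closely their level over the 36 libraries kept to the sum of the 10 genes. The measure was the standard deviation of the log2 ratio to that sum, with 0.5 added to both normalised counts. Its median was 5.477 over the 24866 features considered, those with a mean normalised count of at least 10. The sum was highest in the Activator libraries that chose the genes, so the ranking is not independent of that choice. The 5 with the smallest values were Gm10715 (0.668), Olfr1419 (1.17), GSAT_MM (1.201), Ptger3 (1.283) and Gm10721 (1.321). All but GSAT_MM had a Control median of 0 and passed the limit on the mean only through Activator from induction on. In the other libraries their ratio rests largely on the added 0.5. Olfr1419 on chromosome 19, an olfactory receptor gene, and Ptger3 on chromosome 3, a prostaglandin E receptor, share 0% of their 16-base words with the 10 genes. Olfr1419 was at most 1.32 normalised counts in Control, at most 2.167 in uninduced Activator and 103.3 to 1554 in Activator from induction on. Ptger3 was at most 1.01, at most 1.001 and 49.44 to 1142. The 10 genes themselves, each against the sum of the other 9, had values of 0.449 (Gm17535) to 0.961 (Gm10722).

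The nearest genes without satellite sequence and with a mean normalised count of at least 10 were found on either side of the 3 loci, at 110.7 to 2893 kb. On chromosome 9 this was Alkbh8, a tRNA-modifying enzyme gene, 297 kb beyond the array, with 1365 to 1719 normalised counts in Control and 2058 to 3508 in Activator from induction on. On chromosome 14, Ube2e2, 521.6 kb away, which encodes a ubiquitin-conjugating enzyme, was at 1099 to 1576 and 860.2 to 1378, and the pseudogene Gm18577, 110.7 kb away, at 2.188 to 12.9 and 9.689 to 45.26. On chromosome 2, Lrrc4c, 1031 kb away, which encodes a synaptic adhesion protein, was at 29.85 to 210 in Control and 4.815 to 28.71 in Activator from induction on, and B230118H07Rik, 2893 kb away, was at 206 to 309 and 82.81 to 282.4. Before induction none of the 5 was called between the lines, with Lrrc4c at a log2 difference of -1.63 (edgeR adjusted p = 0.00214) but under the limit on the mean count.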

How the data were processed

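The authors deposited raw counts per gene and per repeat family for each library, made by adapter trimming, alignment to GRCm38 with STAR and counting with TEtranscripts; the annotation release, strand setting and treatment of multi-mapped reads are not given in the sources used here. Symbols came from GENCODE M21 (54409 IDs matched), and 1 unnamed entry (at most 0.00403% of counts on average in a group) was left out. The 30034 features kept after a filter on low counts were fitted together with edgeR (4.0.16, R 4.3.3) using the quasi-likelihood test, 12 groups of line and time point in place of the study's terms for these, and the replicate term of its model as a block, taking library sizes and TMM scaling from the gene rows; the procedure was tested on simulated data. All 10 genes passed the filter. Ratios and shares used raw counts and exact permutation tests (scipy 1.17.1). Sequences were read from the GENCODE M21 transcripts, and alignments made with Biopython 1.88. Replicate pairs of every group differed by more than sampling noise (chi-square over degrees of freedom at least 13). Named genes were the 10 genes, GSAT_MM, SYNREP_MM, satellite-bearing genes by shared words, the 5 closest features and the nearest neighbours. The genes, lists and tests were chosen with earlier results of these data known. Counting intervals cover counting error only. Alternatives were no block, DESeq2 (1.42.0), other library sizes and filters, and leaving out replicates.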

Additional observations from a re-analysis of the deposited data

How the results depend on the processing

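Before induction, the number of the 10 genes called higher in Activator, 2 as reported, was 0 without the replicate block, 1 with no filter on low counts, 1 with only the libraries compared (Gm26870, with Gm10800 at 0.156 and Gm10801, at 0.000481, under the limit on the mean count), 5 by DESeq2 and 0 to 1 when each replicate number was left out. For 24 h after removal against induced Activator, the number called higher, 7 as reported, was 0 without the replicate block, 2 by DESeq2, 2 to 10 when each replicate number was left out and 1 to 10 when each induced Activator library was left out. The difference in the ratio to GSAT_MM between these groups, 0.0464, turned to -0.00363 without Gm10800, both within the spread between replicates. The other 227 summary values under an alternative kept their direction and stayed within the limits for a count, although permutation tests of 3 against 3 libraries could not have passed. Of the single-gene values, 1322 kept their side of the threshold, 36 lost and 17 gained a call, and none turned its direction with a call. The cause of these changes was not tested. The 227 summary values and the single-gene values include comparisons with the Activator libraries from induction on, in which the genes were chosen as high. An unchanged result there followed from that choice and is no measure of stability. Library sizes without TMM moved the median log2 difference of all features from 0.177 to 0.348 for 24 h against induced Activator.

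Same-numbered samples deviated together in the contrasts tested for the block: the correlations of deviations were 0.315, 0.417 and 0.44 between the lines before induction and 0.719, 0.689 and 0.467 within Activator for 24 h against induced. Between the lines they were not all above 0.1 when induced (0.0304 in replicate 2), at 12 h and at 24 h. Between the lines from induction on, the block changed no call of the 10 genes, which were chosen by these contrasts. Over all features it did change calls, with 876 called higher when induced with the block and 863 without it. In Control 3 h after removal against uninduced, an alternative chosen after seeing the data, fitting only the libraries compared, gained a call for Gm10800 (log2 difference -1.01).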
